A study of Mus musculus with 64 samples.

Results

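The 10 genes described here encode inflammatory cytokines (Il1b, Il6, Tnf), colony-stimulating factors (Csf1, Csf2, Csf3) and products of neutrophils (S100a8, S100a9, Csf3r, Retnlg). They were taken by gene name from the 55385 genes counted, and all 10 were found. Total RNA of 8 primary mammary tumors from 4 female mice was sequenced to ask how the dose of Abi1 alters PyMT tumors. All mice carried the PyMT transgene, which encodes polyoma middle T antigen and drives mammary tumors, and floxed Abi1. With 1 floxed allele (fl/wt), tumors 3 and 6 came from the Cre+ heterozygous KO G164 and tumors 6 and 8 from the Cre- control G144. With both alleles floxed (fl/fl), tumors 1 and 6 came from the Cre+ homozygous KO G174 and tumors 6 and 9 from the Cre- control G184. Cre was driven by the MMTV promoter (Line D, of mixed strain), which is active in mammary epithelium, and the PyMT line was C57BL6. By the study's pathology records G164 and G184 were older than G144 and G174. A genotype is represented by 1 mouse with 2 tumors, so p-values reflect only how tumors of the same animal vary, and genotype, mouse and age cannot be told apart.

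Neutrophils are short-lived granulocytes that the growth factor G-CSF (Csf3) calls from the bone marrow through its receptor (Csf3r), and they store the calcium-binding proteins S100a8 and S100a9 as a heterodimer, calprotectin. Il1b, Tnf and Il6 are the classical cytokines of acute inflammation, made by macrophages and other cells and induced through the transcription factor NF-kB, while M-CSF (Csf1) and GM-CSF (Csf2) support macrophages and other myeloid cells. In mammary tumors these factors and cells are widely studied for their part in tumor growth and spread, and stressed squamous epithelium also makes S100a8 and S100a9.

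Sequencing used 4 lanes and 2 runs for every tumor, and the gene totals of the summed tumors ran from 50346075 to 69264893 counts with a median of 66415184. Values are CPM, counts scaled to a common library size with TMM factors. The variance between the runs of a tumor was 1.10 to 1.14 times the counting error, against 37.6 to 94.1 times between the tumors of a mouse. These are means over genes with enough counts, and they do not describe each gene or those with few counts. Abi1 itself was measured at 64.9 ± 2.53 CPM in G164 and 121 ± 13.4 CPM in G144, and at 7.70 ± 1.74 CPM in G174 and 118 ± 6.00 CPM in G184 (SD, n = 2 tumors each). Of the 10 genes 9 passed the filter on low counts and were tested with 22187 genes in all, and Csf2, with 33 counts over the 8 tumors, did not pass. A tumor sample mixes many cells, and fewer cells of a type and less RNA per cell cannot be told apart. Tumor 6 of G164 was the highest in S100a8, S100a9, Csf3r and Retnlg, and in some but not all other neutrophil genes. The heterozygous comparison and the test of the difference are therefore given with and without it for these genes and that list.

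The calprotectin genes S100a8 and S100a9 were highest in the heterozygous KO mouse, and mostly in 1 of its tumors. S100a8 lies on chromosome 3 of GRCm38 from 90668978 to 90670035 (ENSMUSG00000056054.9). It measured 9.05 and 40.5 CPM in tumors 3 and 6 of G164, against 3.31 and 3.85 CPM in tumors 6 and 8 of G144. Both tumors of G164 lay above both tumors of G144, with a 4.47-fold gap between the G164 tumors. S100a8 measured 4.22 and 3.30 CPM in tumors 1 and 6 of G174, against 6.52 and 18.2 CPM in tumors 6 and 9 of G184. Here the KO tumors lay below the control tumors without overlap, and the tumors of G184 differed 2.78-fold. S100a9 lies near it on the same chromosome, from 90692632 to 90695721 on the other strand (ENSMUSG00000056071.12). It measured 5.20 and 25.2 CPM in G164, against 0.945 and 0.968 CPM in G144. Its 4 tumors in homozygotes overlapped, with 0.701 and 1.29 CPM in G174, against 1.23 and 2.92 CPM in G184. The sequences before their starts are shown because the pair is known to be expressed together. They are the RefSeq promoters (GRCm38.p6), read on the gene's strand and counted from RefSeq's start. For S100a8 this start lies inside the GENCODE span given above, so that the printed window does too. The capitals mark the letters TATAAA, those of the TATA box motif. For S100a8 the 30 bases at chr3:90669031-90669060 are given, which begin 40 bases before the start, and for S100a9 the 170 bases at chr3:90695712-90695881, from 160 before the start to 10 after it.
S100a8: agctttcctcTATAAAagcagctgacactt
S100a9: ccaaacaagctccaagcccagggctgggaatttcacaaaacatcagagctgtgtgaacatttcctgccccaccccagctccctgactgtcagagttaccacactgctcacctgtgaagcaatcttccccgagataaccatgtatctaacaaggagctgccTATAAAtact
The match in S100a8 begins 30 bases before the start. The one in S100a9 begins at base 1 of the annotated transcript, not before the start, and is given as a match of letters only. Of 32851 promoters of 300 bases (250 before the start and 50 after it), 8.32% hold TATAAA on the gene's strand, as do 4 of the 9 genes of the 10 that were matched to RefSeq. A match describes the letters of the window and shows no bound factor.

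In the heterozygous comparison S100a9 rose 15.9-fold (log2 fold change 3.99, SE 0.82, adjusted p = 0.0473 by the quasi-likelihood test of edgeR with Benjamini-Hochberg adjustment). S100a8 had a log2 fold change of 2.79 (SE 0.75, adjusted p = 0.0814) and did not pass. In the homozygous comparison neither passed, with −1.71 for S100a8 (SE 0.72, adjusted p = 0.155) and −1.05 for S100a9 (SE 0.76, adjusted p = 0.378). The S100a9 call was lost in 7 of the 8 fits that left out 1 tumor: it was 2.42 (adjusted p = 0.171) without tumor 6 of G164, was 3.96 and 4.01 without tumor 6 or 8 of G144 (adjusted p = 0.237 and 0.149), and had an adjusted p of 0.0507 to 0.0561 without a tumor of G174 or G184. It was also lost in a fit of only the mice compared (3.98, adjusted p = 0.0507) and with the second run alone (3.95, adjusted p = 0.0556). Without tumor 6 of G164 the log2 fold change of S100a8 was 1.32 (adjusted p = 0.326).

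The ratio of the pair was lowest in the G164 tumors. S100a8 gave 1.74 counts (95% exact binomial interval 1.496 to 2.03) for each S100a9 count in tumor 3 of G164 and 1.61 (1.51 to 1.71) in its tumor 6, against 3.50 (2.63 to 4.72) and 3.98 (2.94 to 5.47) in tumors 6 and 8 of G144. The ratio was thus nearly even between the G164 tumors, although their levels lay 4.47-fold (S100a8) and 4.85-fold (S100a9) apart, and both intervals lay below those of the 5 tumors other than tumor 6 of G174. In homozygotes the ratio was 6.02 (4.395 to 8.42) in tumor 1 and 2.55 (1.98 to 3.31) in tumor 6 of G174, against 5.31 (4.22 to 6.76) and 6.21 (5.32 to 7.29) in tumors 6 and 9 of G184. The tumors of G174 differed from each other beyond counting error, while the intervals within each of the other mice overlapped. These intervals cover counting error only.

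**Figure D1:**
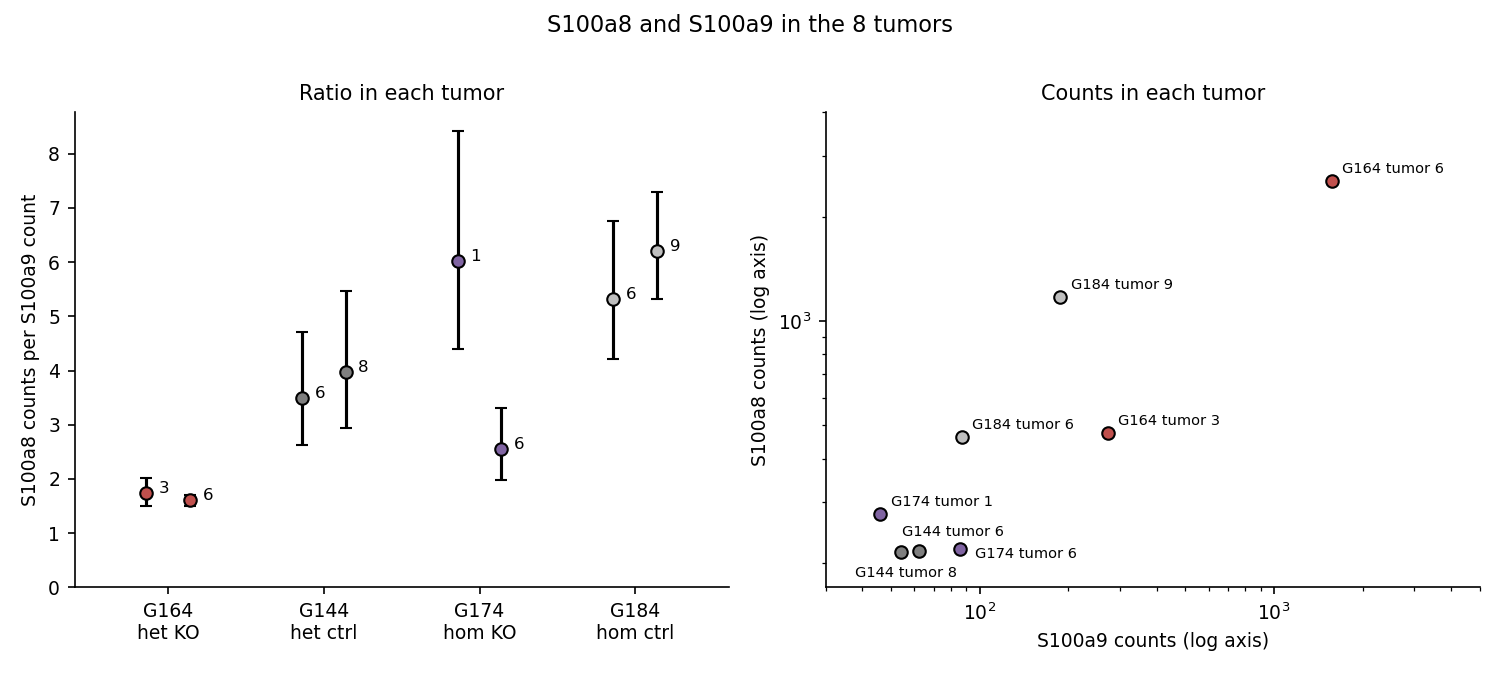
Left, S100a8 counts per S100a9 count in each tumor (y axis), by mouse, with the tumor number beside each point and bars for the 95% exact binomial interval. Right, counts of S100a8 (y axis, log) against S100a9 (x axis, log) in the same 8 tumors. The G164 tumors have ratios of 1.74 and 1.61, and the other 6 tumors lie between 2.55 and 6.21.

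Csf3r, the receptor for G-CSF with 2847 counts over the 8 tumors, moved in opposite directions in the KO mice. The gene lies on chromosome 4 from 126024550 to 126044440 (ENSMUSG00000028859.14). It measured 6.73 and 9.77 CPM in tumors 3 and 6 of G164, against 3.31 and 3.01 CPM in tumors 6 and 8 of G144. It measured 3.63 and 3.18 CPM in tumors 1 and 6 of G174, against 7.17 and 8.44 CPM in tumors 6 and 9 of G184. The groups did not overlap in either comparison, and the 4 tumors of G144 and G174 formed a low class while the 4 of G164 and G184 formed a high one. Csf3r rose 2.61-fold in heterozygotes (log2 fold change 1.38, SE 0.23, adjusted p = 0.0325 by edgeR) and fell 2.29-fold in homozygotes (−1.20, SE 0.23, adjusted p = 0.0212). The heterozygous call was lost without either tumor of G164 (adjusted p = 0.0564 and 0.165) or of G144 (0.188 and 0.106), and the homozygous one without either tumor of G174 (0.0582 and 0.073), without tumor 9 of G184 (0.111), or in a fit of only the mice compared (0.0543). Without tumor 6 of G164 the heterozygous log2 fold change of Csf3r was 1.07.

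Retnlg, a resistin-like gene known from mouse neutrophils, stood out in 1 tumor only. On the strand of the gene, which lies on chromosome 16 from 48872621 to 48874496 (ENSMUSG00000022651.6), it had 21 and 111 counts in tumors 3 and 6 of G164, against 23 and 10 counts in tumors 6 and 8 of G144. It had 1 and 12 counts in tumors 1 and 6 of G174, against 15 and 5 counts in tumors 6 and 9 of G184. Tumor 6 of G164 thus held more counts than the other 7 tumors together. In CPM the heterozygous tumors did not overlap, with 0.400 and 1.78 in G164, against 0.350 and 0.179 in G144, and the homozygous tumors did, with 0.0152 and 0.181 in G174, against 0.212 and 0.0777 in G184. Counts on the opposite strand were 13 to 22 in every tumor and did not follow those of the gene, although no annotated gene overlaps it there. A count without regard to strand, which the authors' sums per mouse use, is 1.72 times the count on the gene's own strand over the 8 tumors. The log2 fold change was 2.03 in heterozygotes (SE 0.94, adjusted p = 0.232) and −0.56 in homozygotes (SE 1.15, adjusted p = 0.769), and neither passed. The heterozygous value was 0.56 without tumor 6 of G164 (adjusted p = 0.823). The homozygous minus the heterozygous change of Retnlg was −2.59 (SE 1.48, adjusted p = 0.233), and −1.11 without that tumor (adjusted p = 0.63).

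**Figure D2:**
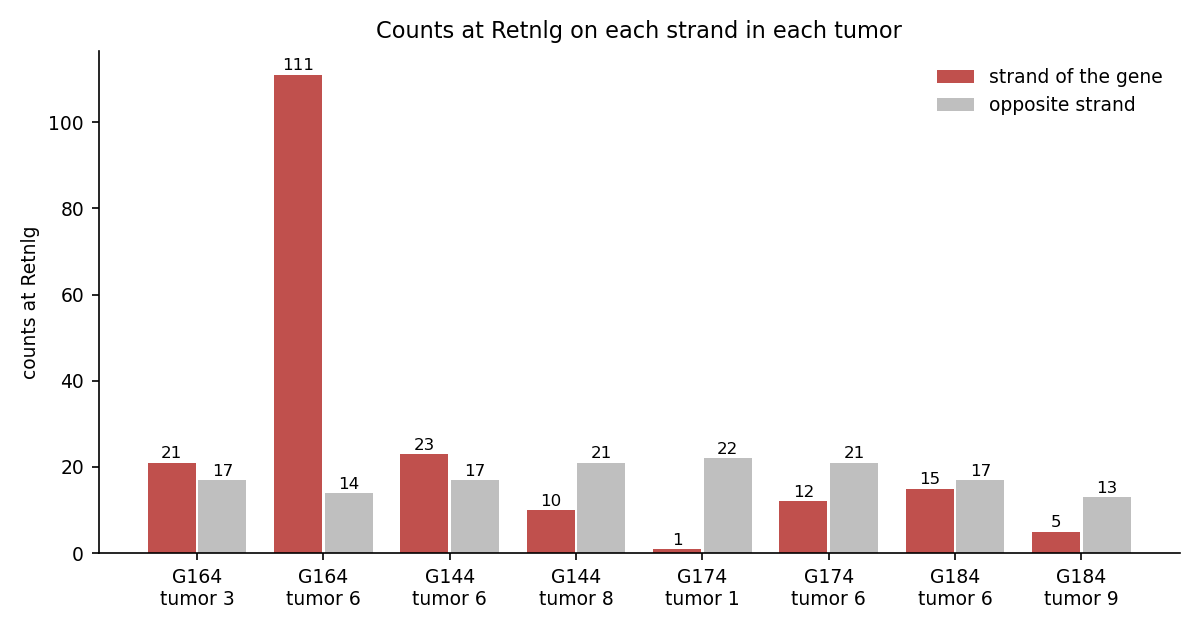
Counts at Retnlg in each of the 8 tumors (x axis) on the strand of the gene (red bars) and on the opposite strand (grey bars), summed over lanes and runs. The opposite strand holds 13 to 22 counts in every tumor, and the gene's strand exceeds 23 counts in tumor 6 of G164 alone, at 111.

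The cytokine genes Il1b and Tnf and the growth factor gene Csf1 were lower in the homozygous KO and had their highest levels in its control. Il1b encodes interleukin-1 beta, a cytokine released after cleavage by the inflammasome, and lies on chromosome 2 from 129364570 to 129371139 (ENSMUSG00000027398.13). It measured 2.99 and 5.19 CPM in tumors 1 and 6 of G174, against 13.3 and 19.1 CPM in tumors 6 and 9 of G184. In heterozygotes it measured 11.5 and 9.58 CPM in tumors 3 and 6 of G164, against 5.47 and 5.25 CPM in tumors 6 and 8 of G144. Neither comparison overlapped, and tumor 6 of G164, the highest for S100a8, was not the higher G164 tumor here. Tnf, the gene of tumor necrosis factor on chromosome 17 (35199381 to 35202007, ENSMUSG00000024401.14), measured 4.28 and 4.34 CPM in G174, against 7.79 and 12.8 CPM in G184. It measured 6.99 and 5.92 CPM in G164, against 5.68 and 4.80 CPM in G144, which left a narrow gap between those mice. Csf1, the gene of M-CSF on chromosome 3 (107741048 to 107760469, ENSMUSG00000014599.10), was the most abundant of the 10 by CPM in every mouse. It measured 34.97 and 37.2 CPM in G174, against 56.3 and 75.1 CPM in G184, and 48.9 and 53.5 CPM in G164, against 30.1 and 34.3 CPM in G144. These 3 promoters are shown because these cytokine and growth factor genes passed the homozygous test in the same direction. The receptor gene Csf3r passed it in that direction too, and its promoter is not shown. Each window has 170 bases, from 160 before the start to 10 after it. They lie at chr2:129371130-129371299 (Il1b), chr17:35201998-35202167 (Tnf) and chr3:107760460-107760629 (Csf1), all on the minus strand.
Il1b: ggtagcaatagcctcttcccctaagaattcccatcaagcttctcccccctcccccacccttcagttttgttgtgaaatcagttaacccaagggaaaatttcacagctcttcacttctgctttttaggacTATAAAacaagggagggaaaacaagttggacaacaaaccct
Tnf: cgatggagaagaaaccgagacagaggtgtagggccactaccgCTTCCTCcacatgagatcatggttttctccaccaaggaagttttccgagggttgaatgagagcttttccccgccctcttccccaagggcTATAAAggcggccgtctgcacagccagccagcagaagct
Csf1: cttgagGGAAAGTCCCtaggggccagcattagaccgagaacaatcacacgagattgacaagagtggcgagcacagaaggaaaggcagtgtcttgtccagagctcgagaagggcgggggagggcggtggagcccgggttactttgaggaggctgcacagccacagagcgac
Capitals mark TATAAA in Il1b and Tnf, which begins 31 and 29 bases before the start, the letters GAGGAAG of a PU.1 motif on the opposite strand in Tnf, and an NF-kB motif (the letters GGGAN directly followed by TTNCC) on the opposite strand in Csf1. Searched on both strands, GAGGAAG is held by 13.6% of the 32851 promoters and by 3 of the 9 matched genes (S100a8, Csf3r and Tnf), and the NF-kB letters by 1.20% and by 2 (Csf1 and Il6). A C/EBP motif (TTGCNNAA) was found in 10.8% of promoters and 4 of the 9, and an AP-1 motif (TGANTCA) in 7.81% and 1 of the 9.

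In the homozygous comparison Il1b fell 3.95-fold (log2 fold change −1.98, SE 0.30, adjusted p = 0.0115 by edgeR), Tnf fell 2.38-fold (−1.25, SE 0.26, adjusted p = 0.0266) and Csf1 fell 1.82-fold (−0.86, SE 0.15, adjusted p = 0.0175). In the heterozygous comparison none of these genes passed, with 0.97 for Il1b (SE 0.30, adjusted p = 0.108), 0.67 for Csf1 (SE 0.15, adjusted p = 0.0588) and 0.30 for Tnf (SE 0.26, adjusted p = 0.51). The homozygous calls of all of them were lost without tumor 9 of G184 (Il1b −1.70 with an adjusted p of 0.061, Csf1 −0.64 with 0.074 and Tnf −0.85 with 0.114) and in a fit of only the mice compared (0.0537, 0.065 and 0.0816). Without tumor 1 of G174 Il1b was still called (−1.64, adjusted p = 0.0352), and Csf1 and Tnf were not (0.0629 and 0.0841). Tnf was also lost without tumor 6 of G174 (0.0771) or of G164 (0.0502), and in heterozygotes Csf1 passed without tumor 6 or 9 of G184 (0.0429 and 0.0445). A fit of only the mice compared called both Csf1 (0.66, adjusted p = 0.0432) and Il1b (0.96, adjusted p = 0.0459) in heterozygotes.

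Csf3, the gene of G-CSF, ran against the other genes. It lies on chromosome 11 from 98701263 to 98703629 (ENSMUSG00000038067.2) and had 101 and 208 counts in tumors 1 and 6 of G174, against 19 and 34 counts in tumors 6 and 9 of G184. These are 1.54 and 3.13 CPM in G174, against 0.268 and 0.528 CPM in G184, without overlap. In heterozygotes it measured 2.02 and 0.754 CPM in tumors 3 and 6 of G164, against 2.94 and 1.11 CPM in tumors 6 and 8 of G144, which overlap, and the higher-numbered tumor had 0.373 times the level of the other in G164 and 0.378 times in G144. Its log2 fold change was 2.55 in homozygotes (SE 0.71, adjusted p = 0.0586 by edgeR) and −0.56 in heterozygotes (SE 0.66, adjusted p = 0.64), so the ligand had a higher mean in the homozygous KO, where its receptor gene Csf3r fell. The homozygous value passed with DESeq2 (adjusted p = 0.00331), without the filter on low counts (0.000783) and with the second run alone (0.0476). It did not pass in the other 5 of these 8 alternatives. Nor did it pass in any of the 8 fits that left out 1 tumor, where it ranged from 1.95 to 3.11.

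Il6 and Csf2 were near the limit of detection. Il6, the gene of interleukin-6 on chromosome 5 (30013114 to 30019981, ENSMUSG00000025746.11), had 20 and 21 counts in tumors 3 and 6 of G164, against 14 and 20 counts in tumors 6 and 8 of G144. It had 13 and 15 counts in tumors 1 and 6 of G174, against 25 and 27 counts in tumors 6 and 9 of G184. The log2 fold change was 0.33 in heterozygotes (SE 0.37, adjusted p = 0.61) and −0.86 in homozygotes (SE 0.37, adjusted p = 0.162). Csf2, the gene of GM-CSF on chromosome 11 (54247271 to 54249667, ENSMUSG00000018916.5), had 5 and 3 counts in G164, against 4 and 1 in G144, and 1 and 4 counts in G174, against 6 and 9 in G184. The exact Poisson intervals of all 8 Csf2 counts overlap, running from 4.12 to 17.1 for the 9 counts and from 0.0253 to 5.57 for 1 count. Csf2 was not tested. Its counts in G174 lay below those in G184 without overlap, while those of G164 and G144 overlapped. Overlapping intervals of single tumors do not settle whether the mice differed. The gene Gm12223, on the other strand, overlaps Csf2 and had 10 counts, and Il1bos overlaps Il1b in the same way with 86 counts.

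**Figure D3:**
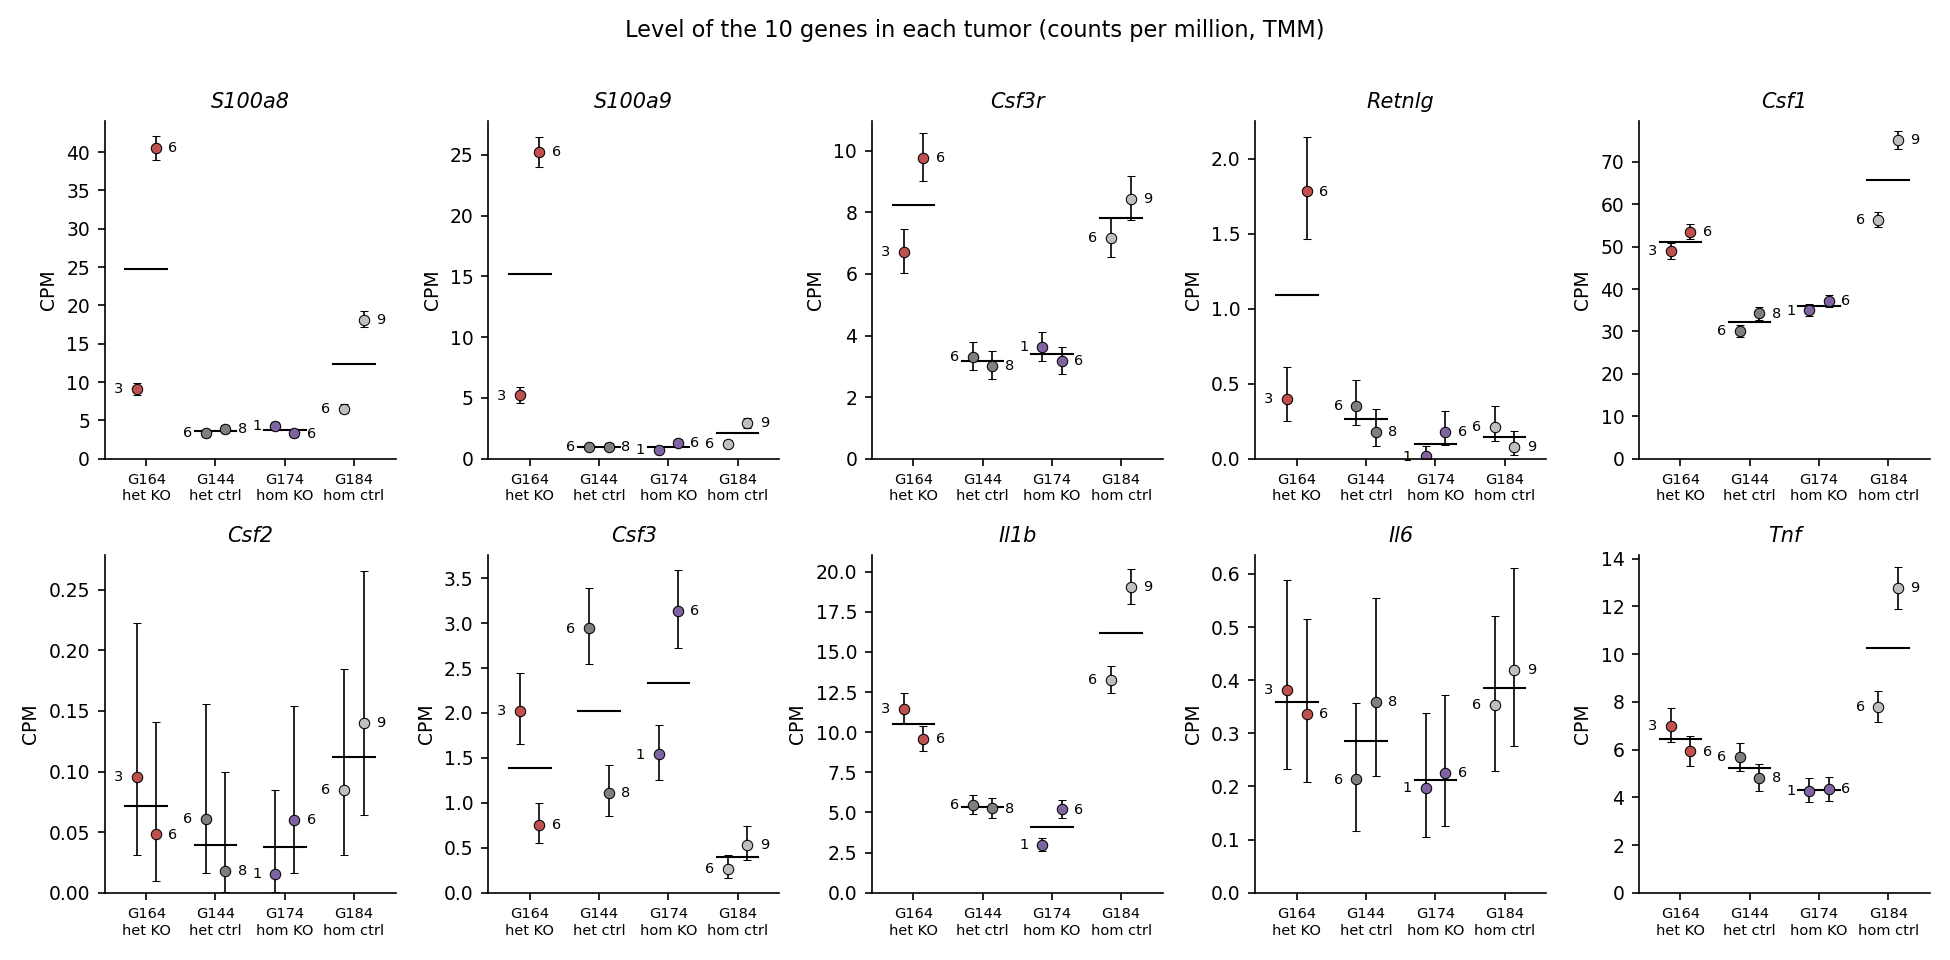
Level of each of the 10 genes (y axis, CPM, each panel with its own scale from 0) in the tumors of the 4 mice (x axis); points are tumors with their numbers, thin bars 95% Poisson intervals of the count and horizontal lines the mean of 2 tumors. S100a8, S100a9 and Retnlg are highest in tumor 6 of G164, Csf1, Il1b and Tnf in tumor 9 of G184, and Csf3 is lowest in the tumors of G184.

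Levels can be compared between genes only per length, as counts per kilobase of exon scaled to the same total in each tumor (TPM). On this scale S100a8 had the highest mean over the 8 tumors (42.2 TPM, from 12.2 to 152), followed by S100a9 (24.3 TPM, from 3.62 to 126), Csf1 (23.3 TPM, from 14.6 to 36.1), Il1b (12.7 TPM, from 4.22 to 25.4) and Tnf (10.7 TPM, from 6.87 to 19.8). Csf3r (4.19), Csf3 (2.85), Retnlg (1.78), Il6 (0.339) and Csf2 (0.219) had means below 5 TPM. Neighbours in this order overlapped in their ranges over tumors. The place of S100a9 rests on G164, where it averaged 77.1 TPM. It averaged 4.51 TPM in G144, 5.03 TPM in G174 and 10.6 TPM in G184, below Csf1 (14.97, 18.1 and 34.0 TPM), Il1b (6.93, 5.65 and 23.1 TPM) and Tnf (7.91, 6.96 and 17.0 TPM) in the same mice. Csf1 also lay above S100a8 in G144 (12.7 TPM for S100a8) and in G174 (14.4 TPM for S100a8). The order of the mice was G164, G184, G174, G144 for S100a8, S100a9 and Csf3r, and G184, G164, G144, G174 for Il1b, Tnf and Il6, by mean CPM. For Csf3r, S100a8 and Il6 the tumors of G164 and G184 overlapped, as did those of G174 and G144 for these 6 genes except Il1b and Tnf, where both tumors of G174 were lower.

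Over the 9 genes tested, the heterozygous comparison called 2 higher and 0 lower, where 4.01% of all genes were called and 2.72% were called higher. The homozygous comparison called 0 higher and 4 lower, where 13.1% of all genes were called and 7.7% were called lower. The median log2 fold change of the 9 genes was 0.97 in heterozygotes and −1.05 in homozygotes, beside medians over all genes of 0.02 and −0.00. In heterozygotes 8 of the 9 lay above 0, against 51.4% of all genes, and in homozygotes 8 of the 9 lay below 0, against 50.1% of all genes. Csf3 was the exception in both.

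**Figure D4:**
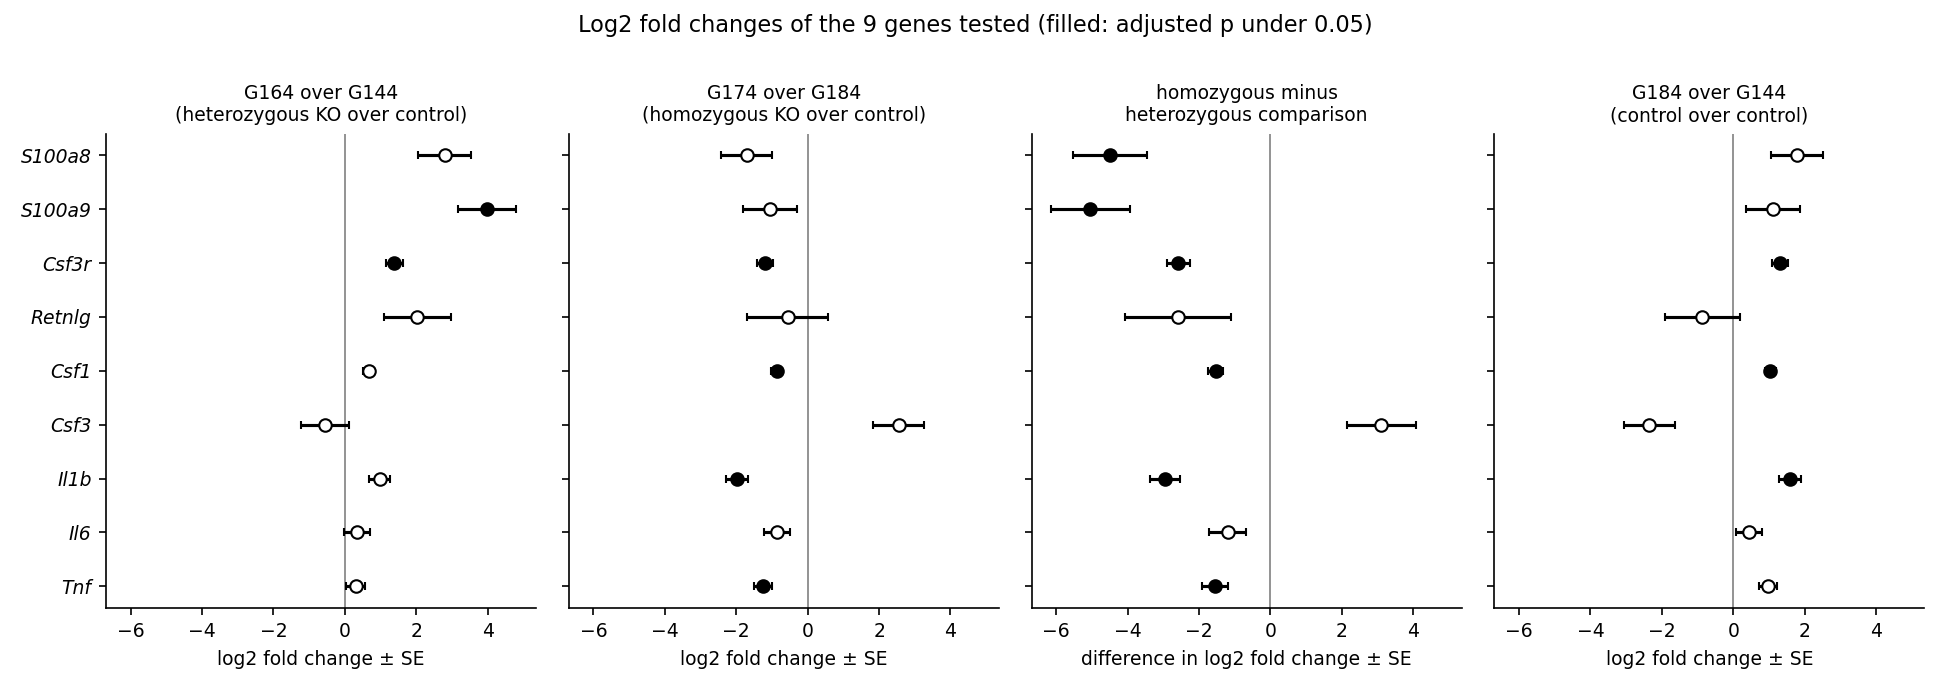
Log2 fold change (x axis) of the 9 genes tested (y axis) in the heterozygous comparison, the homozygous comparison, their difference and the comparison of the control mice; bars are SE and filled points passed an adjusted p of 0.05. Filled points lie right of 0 in the first panel (S100a9, Csf3r), left of 0 for the homozygous comparison and the difference, and right of 0 for the control mice.

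By the test of the difference itself, 6 of the 9 genes had a lower change in homozygotes than in heterozygotes, where 25.1% of all genes differed and 13.1% had the lower change in homozygotes. This difference adds G174 and G144, the younger mice, and subtracts G164 and G184, the older ones. It therefore cannot be told apart from a difference by age. The 6 genes were Csf3r (difference in log2 fold change −2.58, SE 0.33, adjusted p = 0.00368 by edgeR), Csf1 (−1.54, SE 0.22, adjusted p = 0.005), Il1b (−2.95, SE 0.42, adjusted p = 0.00521), S100a9 (−5.04, SE 1.10, adjusted p = 0.0197), S100a8 (−4.51, SE 1.03, adjusted p = 0.0228) and Tnf (−1.55, SE 0.37, adjusted p = 0.0246). For Csf3 the difference was 3.11 in the other direction (SE 0.97, adjusted p = 0.0555). When each tumor was left out in turn, Csf3r, Csf1 and Il1b were called in all 8 fits, S100a9 was lost in 4, S100a8 in 6 and Tnf in 7. Without tumor 6 of G164 the difference was −3.45 for S100a9 (adjusted p = 0.0419) and −3.01 for S100a8 (adjusted p = 0.0525), and for Csf3r it was −2.25 (adjusted p = 0.0158).

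The control mice, neither of which carries Cre, differed from each other in 3 of the genes called above. Csf1 was 2.04-fold higher in G184 than in G144 (log2 fold change 1.03, SE 0.15, adjusted p = 0.0116 by edgeR), Il1b 3.02-fold (1.59, SE 0.30, adjusted p = 0.0212) and Csf3r 2.47-fold (1.30, SE 0.23, adjusted p = 0.0182). That is 3 of 9 genes higher and 0 lower, where 12.6% of all genes were called and 6.17% were called higher in G184. Tnf had 0.97 (adjusted p = 0.0532), S100a8 1.78 (adjusted p = 0.144), S100a9 1.11 (adjusted p = 0.355) and Csf3 −2.35 (adjusted p = 0.073). The calls were lost without tumor 6 of G144 or tumor 9 of G184, and those of Csf3r and Il1b also without tumor 8 of G144. Both KO comparisons share a control mouse with this one, so their values are not independent of it.

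Set against the other control mouse, neither KO mouse passed the test in any of the 9 genes. For G164 against G184, 0 of 9 passed by edgeR and 4 had an unadjusted p under 0.05, where 0.424% of all genes were called and 7.73% had an unadjusted p under 0.05. S100a9 still had a log2 fold change of 2.88 (SE 0.77, adjusted p = 0.318) and Retnlg 2.89 (SE 0.99, adjusted p = 0.501), while Csf3r had 0.08 (SE 0.23, adjusted p = 0.971). S100a8 had 1.01 (SE 0.70, adjusted p = 0.836). Csf3 had 1.79 (SE 0.71, adjusted p = 0.606) and Tnf −0.67 (SE 0.26, adjusted p = 0.578), the reverse of their directions against G144. Il1b (−0.62), Csf1 (−0.36) and Il6 (−0.11) also lay below 0 against G184 and above 0 against G144. For G174 against G144, 0 of 9 passed and 0 had an unadjusted p under 0.05, where 0.0901% of all genes were called and 12.4% had an unadjusted p under 0.05. In this comparison Csf3r had 0.11 (SE 0.23, adjusted p = 0.877), S100a8 0.07 (SE 0.71, adjusted p = 0.98) and Il1b −0.39 (SE 0.30, adjusted p = 0.611). Between the KO mice, G174 lay below G164 in Csf3r (−1.28, SE 0.23, adjusted p = 0.0272), S100a9 (−3.93, SE 0.81, adjusted p = 0.037) and Il1b (−1.36, SE 0.30, adjusted p = 0.0433). These are 3 of 9 genes, where 7.1% of all genes were called and 5.31% were called lower. With counts summed per mouse and the mouse as the replicate, Cre+ against Cre- mice gave 0 of 9 genes (0 with an unadjusted p under 0.05 by edgeR) and 0% of 23281 genes, of which 191 had an unadjusted p under 0.05. In that fit S100a9 had 2.52 (SE 1.32), with an unadjusted p of 0.121, and Il1b −0.55 (SE 0.71).

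Receptors and ligands of the same pathways were followed from lists, with all tests by edgeR. The counts of this and the later lists stand beside these shares of all genes. In heterozygotes 2.72% were called higher, in homozygotes 7.7% lower, and in G184 against G144 6.17% higher. In the test of the difference 13.1% had the lower change in homozygotes. The medians over all genes were 0.015 in heterozygotes and −0.001 in homozygotes. Of 11 genes listed as receptors of these cytokines, 0 passed in heterozygotes, although all 11 had a log2 fold change above 0 (median 0.79), and 0 rose and 5 fell in homozygotes (median −0.81). Csf1r, the receptor of M-CSF, measured 51.6 and 55.1 CPM in G174, against 104 and 156 CPM in G184, and fell (−1.29, adjusted p = 0.013). The receptor genes Csf2rb and Csf2rb2 fell as well (−1.31, adjusted p = 0.0378, and −1.67, adjusted p = 0.0263). Il1r2, the decoy receptor of interleukin-1, passed the test of the difference (−2.88, adjusted p = 0.0435) and in neither comparison alone. Of 15 further ligands, 2 rose in heterozygotes (median 0.35) and 5 fell in homozygotes (median −1.11). Tnfsf10, the gene of TRAIL, measured 48.4 and 47.1 CPM in G164, against 25.1 and 29.1 CPM in G144, and 37.5 and 30.2 CPM in G174, against 126 and 154 CPM in G184. It rose in heterozygotes (0.82, adjusted p = 0.039) and fell in homozygotes (−2.05, adjusted p = 0.00159). Clcf1, a cytokine of the interleukin-6 family, also rose in heterozygotes (1.13, adjusted p = 0.0498) and fell in homozygotes (−1.23, adjusted p = 0.021). The lymphotoxin gene Lta fell in homozygotes (−1.98, adjusted p = 0.0432), and Ltb passed the test of the difference (−3.56, adjusted p = 0.0144).

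Of 23 targets of NF-kB and of the acute response, 4 rose in heterozygotes (median 0.50) and 8 fell in homozygotes (median −0.54), and 12 were higher in G184 than in G144. Sele, the endothelial selectin that catches passing leukocytes, measured 1.98 and 2.17 CPM in G164, against 0.564 and 0.484 CPM in G144, and 0.335 and 0.271 CPM in G174, against 1.98 and 1.27 CPM in G184. It rose in heterozygotes (1.98, adjusted p = 0.0285 by edgeR) and fell in homozygotes (−2.42, adjusted p = 0.00709). Vcam1, an adhesion molecule, fell in homozygotes (−2.03, adjusted p = 0.017). The acute phase genes Saa3 and Hp passed the test of the difference (−4.04, adjusted p = 0.0148, and −3.49, adjusted p = 0.0277) and in neither KO comparison. Of 13 genes of toll-like receptor and inflammasome signalling, 2 rose in heterozygotes (median 0.19) and 4 fell in homozygotes (median −0.31). Gsdmd, the pore protein through which interleukin-1 beta leaves cells, rose in heterozygotes (1.11, adjusted p = 0.0237) and fell in homozygotes (−1.77, adjusted p = 0.00213). The inflammasome sensor gene Nlrp3 rose in heterozygotes (1.16, adjusted p = 0.0378) and fell in homozygotes (−1.65, adjusted p = 0.00696). Tlr2 fell in homozygotes (−0.99, adjusted p = 0.0168), and Cd14 passed the test of the difference (−2.02, adjusted p = 0.0187).

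Other genes of neutrophils bear on the label of the set. Of 26 further neutrophil genes 21 were tested, of which 2 rose in heterozygotes (median 1.46), and 1 rose and 7 fell in homozygotes (median −0.85). In the test of the difference 1 had a higher and 10 a lower change in homozygotes (median −2.72). Without tumor 6 of G164, which leaves that mouse 1 tumor, the median of the 21 was 0.89 in heterozygotes and −1.76 for the difference. The medians over all genes in that fit were −0.01 and 0.03. Fpr2, a formyl peptide receptor, measured 0.972 and 1.24 CPM in G164, against 0.229 and 0.376 CPM in G144. In homozygotes it measured 0.168 and 0.181 CPM in G174, against 2.74 and 1.52 CPM in G184, and fell (−3.60, adjusted p = 0.00600 by edgeR). Il1f9, which keratinocytes make too, rose in heterozygotes (5.08, adjusted p = 0.0237) and fell in homozygotes (−3.41, adjusted p = 0.0429). Cd177, named after its values were seen as the 1 that rose in homozygotes, measured 43.1 and 8.28 CPM in G174, against 3.34 and 1.41 CPM in G184. The defining neutrophil gene Ly6g, chosen after its values were seen as were Ngp and Mpo, had 16 counts over the 8 tumors, with 0.0191 and 0.176 CPM in G164 and at most 0.0282 CPM in the other 6 tumors. Ngp, a granule gene of maturing neutrophils, measured 4.75 CPM in tumor 6 of G164 and at most 0.114 CPM in the other 7 tumors. Mpo, the myeloperoxidase gene of their precursors, measured 1.60 CPM there and at most 0.0717 CPM in the other 7 tumors, and these 3 genes did not pass the filter on low counts. Camp, which did, measured 1.46 CPM there and at most 0.218 CPM in the other 7 tumors, and was at 0 in both tumors of G174. Other genes of the list, chosen after their values were seen, were not highest in that tumor. Prtn3 measured 7.73 CPM there and 10.025 CPM in tumor 6 of G144, Mmp9 measured 3.26 CPM there and 11.4 CPM in tumor 6 of G174, and Lcn2 measured 2686 CPM there and 3867 CPM in tumor 6 of G174. Fpr1 measured 0.722 CPM there and 0.901 CPM in tumor 9 of G184. In tumor 6 of G184 Clec4e measured 2.58 CPM and Mcemp1 1.81 CPM, against 1.14 and 0.994 CPM in tumor 6 of G164. The summed level of the 26 genes, 2974 to 6238 CPM, is mostly Lcn2 and Ltf (1346225 and 581839 counts), which mammary epithelium also makes.

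Markers of other cells in the tumors were followed in the same way. Of 14 tested monocyte and macrophage markers, 3 rose in heterozygotes (median 0.69) and 8 fell in homozygotes (median −0.85), and the list summed to 1116 and 996 CPM in G164, against 616 and 815 CPM in G144, and to 748 and 861 CPM in G174, against 983 and 1204 CPM in G184. Ly6c2, a marker of inflammatory monocytes, rose in heterozygotes (3.10, adjusted p = 0.021 by edgeR) and fell in homozygotes (−4.08, adjusted p = 0.00358). Ccr2 rose (0.88, adjusted p = 0.039) and fell (−1.93, adjusted p = 0.00235) likewise, and Nos2 fell in homozygotes (−2.54, adjusted p = 0.00324). Of 10 T and NK cell markers, 3 rose in heterozygotes (median 1.29) and 9 fell in homozygotes (median −2.27), and the list summed to 26.6 and 29.5 CPM in G164, against 12.4 and 12.7 CPM in G144, and to 7.30 and 8.24 CPM in G174, against 33.5 and 33.3 CPM in G184. Cd3e, a chain of the T cell receptor complex, rose (1.74, adjusted p = 0.0249) and fell (−2.50, adjusted p = 0.00356), Cd3d and the perforin gene Prf1 fell in homozygotes (−2.17, adjusted p = 0.0267, and −2.87, adjusted p = 0.0295), and Ncr1 passed the test of the difference (−4.26, adjusted p = 0.0384). Of 15 tested markers of squamous epithelium, which can make S100a8 and S100a9, 3 rose in heterozygotes (median 3.73) and 0 passed in homozygotes (median 0.00). The 3 that rose, named after their values were seen, were Krt10 (3.73, adjusted p = 0.031), Ivl (6.13, adjusted p = 0.0288) and Sbsn (1.27, adjusted p = 0.0441). The squamous list summed to 204 and 170 CPM in G164, against 27.5 and 32.4 CPM in G144, and to 19.6 and 113 CPM in G174, against 25.6 and 40.5 CPM in G184. Of the 113 CPM in tumor 6 of G174, Krt17 made up 98.7 CPM, where it measured 17.9 and 27.7 CPM in G164. Krt1, Krt10 and Flg measured 0.0602, 2.53 and 0.0151 CPM in that tumor of G174. Krt16, a keratin of stressed epidermis, measured 1.26 and 25.9 CPM in G164 and 0.108 to 2.81 CPM in the other 6 tumors. Krt1, Krt10 and Flg were instead higher in tumor 3 of G164, with 67.3 and 22.2 CPM for Krt1, 66.6 and 17.5 CPM for Krt10 and 23.1 and 9.11 CPM for Flg in tumors 3 and 6. Krt16, Krt6b, Krt1 and Flg did not pass in heterozygotes (adjusted p = 0.0924, 0.0517, 0.0567 and 0.0753) but did in the test of the difference (adjusted p = 0.0372, 0.0148, 0.0204 and 0.0495). Of the squamous markers Sprr2a1 was at 0 in all 8 tumors. The part of monocytes, lymphocytes or squamous cells in the levels of the cytokine and neutrophil genes was not tested.

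The remaining lists hold markers of other cells of the gland and its surroundings. Of 8 fibroblast markers 2 rose in heterozygotes and 1 fell in homozygotes: Dcn did both (1.46, adjusted p = 0.047 by edgeR, and −2.03, adjusted p = 0.0106) and Pdgfra rose (1.02, adjusted p = 0.0148), while Fap passed the test of the difference (−1.34, adjusted p = 0.0284). Of 6 endothelial markers Vwf rose in heterozygotes (0.91, adjusted p = 0.0407) and Kdr fell in homozygotes (−0.85, adjusted p = 0.0204). Of 6 adipocyte markers the leptin gene Lep rose (2.13, adjusted p = 0.0357) and fell (−3.63, adjusted p = 0.00613), and Adipoq, Plin1 and Cidec passed the test of the difference (adjusted p = 0.0274, 0.0343 and 0.0289). The adipocyte list summed to 24.8 and 67.8 CPM in G164, against 13.3 and 19.4 CPM in G144, and to 17.7 and 8.34 CPM in G174, against 34.3 and 19.6 CPM in G184. Of 6 tested mast cell and basophil markers Kit fell in homozygotes (−1.30, adjusted p = 0.0177) and Fcer1a passed the test of the difference (adjusted p = 0.0315), and Kit, which mammary epithelium expresses, makes up most of the summed level of 266 to 962 CPM. Of 8 luminal epithelium markers Epcam rose in homozygotes (0.43, adjusted p = 0.0455). Of 5 red blood cell markers 0 passed in either KO comparison, and Hbb-bs was lower in G184 than in G144 (−0.92, adjusted p = 0.0289). Skeletal muscle markers summed to 326 and 1.46 CPM in G164, against 2.29 and 261 CPM in G144, and to at most 2.29 CPM in the tumors of G174 and G184, and Myh4 did not pass. Without tumor 6 of G164, which leaves that mouse 1 tumor, the median of the squamous markers in heterozygotes was 3.41. Those of the other 14 lists lay from −0.17 (luminal epithelium) to 1.19 (T and NK cells), where the median over all genes was −0.01. The part of these cells in the levels was not tested.

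**Figure D5:**
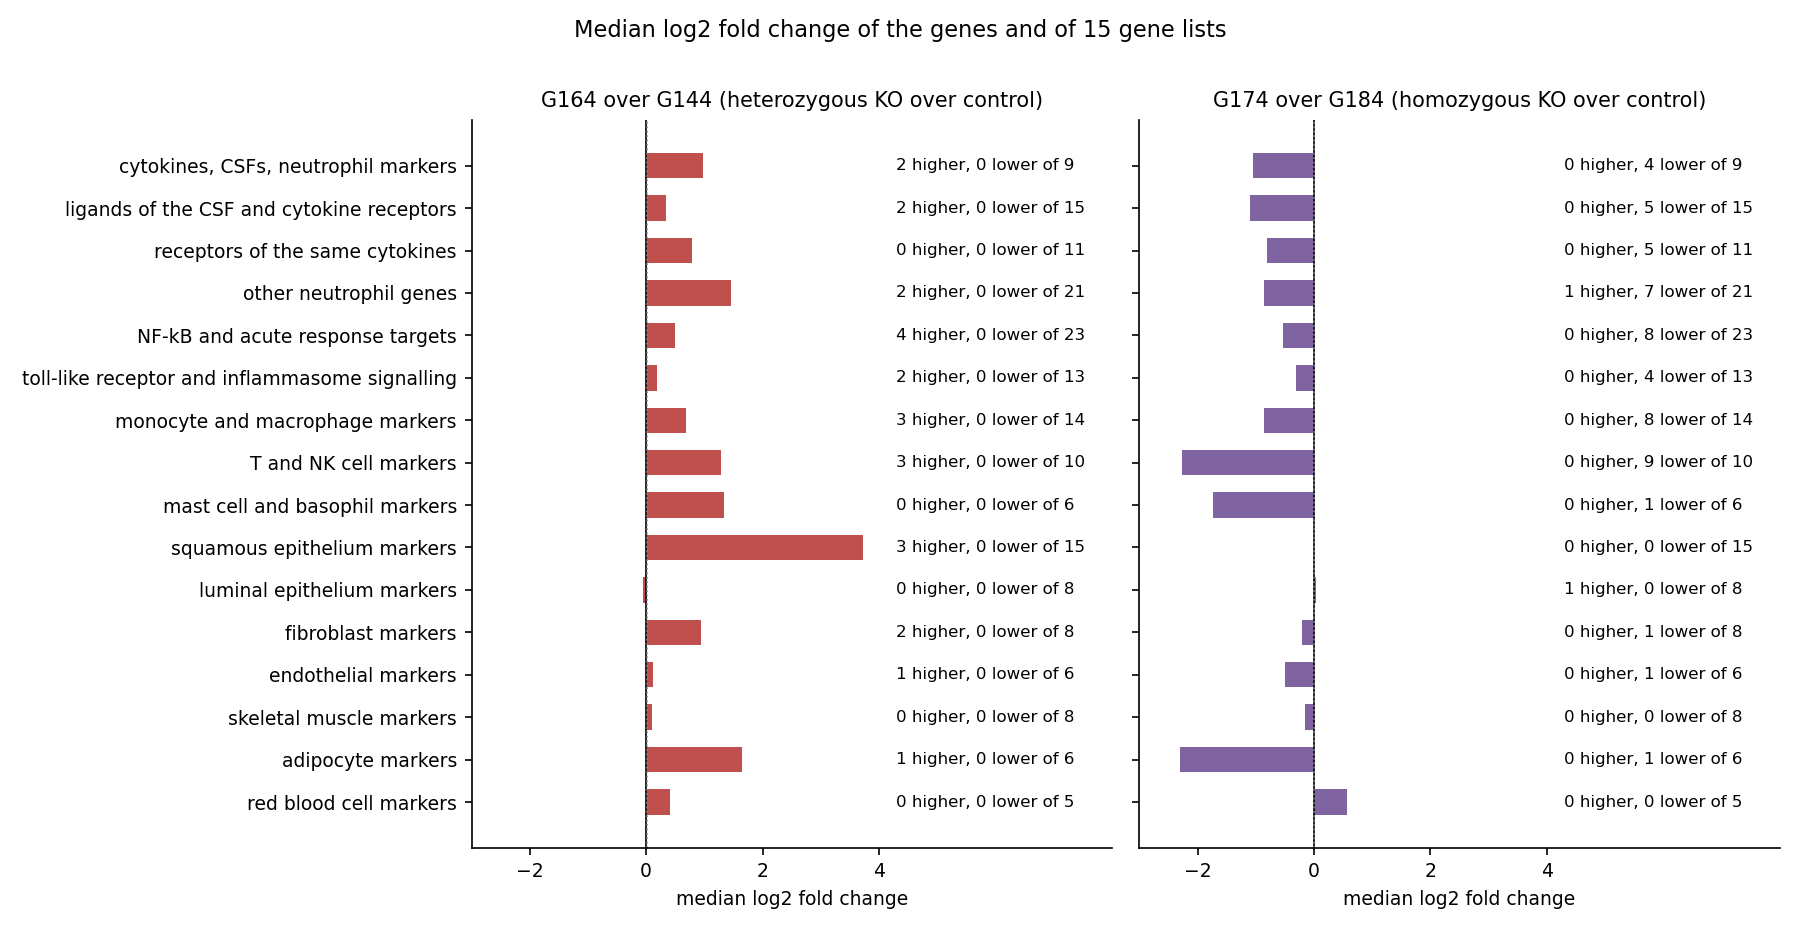
Median log2 fold change (x axis, bars) of the 9 genes tested and of 15 gene lists (y axis) in the heterozygous (left) and homozygous (right) comparison, with the number of genes called higher and lower of those tested; the dotted line is the median of all genes. The bar of the 9 genes is at 0.97 on the left and −1.05 on the right, and squamous markers have the longest bar on the left, at 3.73.

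The genes whose profile over the 8 tumors lay nearest to each gene were found by the mean absolute difference of centred log2 CPM among protein-coding genes with a mean of at least 1 CPM. For S100a9 they were Krt71, a hair follicle keratin (0.33), Cd79b, a B cell receptor chain (0.40), and Endou (0.46), where the median over 13430 genes was 1.34. For S100a8 they were Mapk4 (0.31), Klk8, a serine protease of skin (0.36), and Cd22, a B cell lectin (0.37). Among the nearest of Il1b were Fcgr1 (0.12) and Ly86 (0.16), both known from myeloid cells, with a median over genes of 0.77. Csf3r had Fam78a (0.09), Icosl (0.11) and Il16 (0.11), Csf1 had Shisa5 (0.04), Nedd9 (0.07) and Zc3h12a (0.07), and Tnf had Pcdhb16 (0.11), Tlr2 (0.12) and Scml4 (0.12). Il6 lay nearest to Filip1l (0.09), Plcl1 (0.10) and Tmsb4x (0.10), and Csf3 to Pcolce2 (0.32), Ceacam19 (0.33) and Rab27a (0.39). Retnlg had no close neighbour (Bank1 0.67, Cd79b 0.69, Endou 0.69). Within the set Csf1 and Tnf lay closest (0.19), S100a8 lay nearer to Csf3r (0.53) than to S100a9 (0.62), and Csf3 lay at least 1.21 from each of the others. These distances describe 8 tumors of 4 mice and carry no test.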

How the data were processed

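The deposited counts per gene were made by the authors with STAR, lane by lane, without regard to strand and for each strand. The submitters' processing notes name GRCm38, mm10, STAR and bcl2fastq, with no versions. The authors also deposited sums per mouse, which equal the unstranded sums at all 55381 genes listed. Reads in no gene made up 28.3% to 34.9%, unmapped reads 4.25% to 6.45%, multimapping reads 10.5% to 14.2% and ambiguous reads 1.48% to 2.09% of a tumor's reads, and were left out. Reverse-strand counts (the forward strand held 4.76% to 6.80% of stranded counts) were summed per tumor over 4 lanes and 2 runs. Symbols came from the deposited table and gene positions from GENCODE M21.

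After a filter on low counts (filterByExpr by mouse) kept 22187 of 55385 genes with 99.96% of counts, a quasi-likelihood model of edgeR 4.0.16 (R 4.3.3) with TMM factors took all 8 tumors together. Adjusted p-values are by Benjamini-Hochberg, with a threshold of 0.05. Between tumors of a mouse the coefficient of variation was 0.229, on 4 residual degrees of freedom. CPM, log2 values and TPM were computed from the counts. The alternatives were DESeq2 1.42.0, its size factors, library size alone, no filter, unstranded counts, either run, only the mice compared and each tumor left out. The text names all 10 genes, up to 4 genes of each list with the largest change among those that passed a test (else the most abundant) and the 3 genes nearest to each gene. Some genes that this rule names are not reported here. The genes and lists were chosen with earlier results of these data known.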

Additional observations from a re-analysis of the deposited data

Results flagged for a closer look

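In 6 genes the homozygous change differed from the heterozygous one by the test of the difference in edgeR. The differences in log2 fold change, homozygous minus heterozygous, were −2.95 for Il1b, −4.51 for S100a8, −5.04 for S100a9, −1.54 for Csf1, −2.58 for Csf3r and −1.55 for Tnf. All are negative, which means a lower change in the homozygous KO. The control mice G184 and G144 differed in Csf1, Csf3r and Il1b too. The difference also sets the younger mice, G174 and G144, against the older ones, G164 and G184. The parts of mouse, age and genotype in these differences cannot be told apart.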

How the results depend on the processing

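Of 603 log2 fold changes recomputed under alternatives, 517 kept their direction and their side of the threshold. The numbers of genes called are not among these and are given next. In heterozygotes, where 2 genes were called, no filter gave 5 and DESeq2 5 (Csf1, Csf3r, Il1b, S100a8 and S100a9), the second run alone 1, only the mice compared 3 (Csf1, Csf3r and Il1b, without S100a9), and leaving out 1 tumor 0 to 2. In homozygotes, where 4 were called, a fit of only the mice compared gave 0 and leaving out 1 tumor 0 to 4. The difference gave 6 genes, and 3 to 6 without 1 tumor. The controls gave 3 genes, 6 with no filter, 5 with DESeq2 and 0 to 4 without 1 tumor. The direction turned in values that did not pass: Csf3 and Il6 in heterozygotes without tumor 6 of G144 (0.30 and −0.014), Retnlg in homozygotes with unstranded counts (0.23), the first run alone (0.037), without tumor 1 of G174 (0.30) or tumor 6 of G184 (0.34), and Il6 between the controls with the second run alone (−0.21). Over the fits without 1 tumor these ranged from −1.40 to 0.30 for Csf3, from −0.014 to 0.74 for Il6 and from −3.10 to 0.34 for Retnlg. The cause was not tested.

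Over all genes, the heterozygous comparison called 890 genes, against 2802 with DESeq2, 2614 with no filter and 1364 with only the mice compared. The homozygous one called 2917, against 4577, 4575 and 878, and the controls 2787, against 4484 with DESeq2 and 1437 with only the mice compared. Leaving out 1 tumor gave 16 to 1153, 557 to 2540 and 206 to 3215, and 2218 to 4776 for the difference (5579 with all). Scaling by library size alone split the heterozygous calls into 754 higher and 148 lower, against 604 and 286, and the difference into 1895 and 3240, against 2672 and 2907. DESeq2 split the heterozygous calls into 1398 and 1404, and only the mice compared split the homozygous ones into 255 and 623, against 1208 and 1709. In the fits that leave a mouse with 1 tumor, that tumor is assumed to vary like the others. No paired analysis was made, because the labels give only a tumor number within each mouse and nothing that matches tumors of different mice. Csf2 and Il6 rest on 33 and 155 counts over the 8 tumors.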
